A study of Danio rerio with 14 samples.

Results

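H3K4me3 in embryos without Pou5f3 was set directly against H3K4me3 in embryos without Sox19b, to ask which marked regions the mutants share and which are marked in only 1 of them. The members were all peaks on chromosomes 1 to 25 in the peak lists of both libraries, 22502 in MZspg and 42572 in MZsox19b. Together these were 65074 of the 681659 peaks in the 7 lists of the series. H3K4me3 is a methylation of histone H3 that is laid down mainly at the start sites of genes that are transcribed or poised for transcription, and in the early fish embryo it appears widely around zygotic genome activation, when the embryo begins to read its own genes. H3K27ac, an acetylation of the same histone, marks active promoters and enhancers. Pou5f3 and Sox19b are maternally supplied transcription factors of the POU and SoxB1 families that bind regulatory DNA before and during this transition.

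The series holds ChIP-seq of H3K4me3 and H3K27ac from whole zebrafish embryos at 4.3 hpf (hours post fertilization), the age of dome stage in the WT. MZspg embryos lack maternal and zygotic Pou5f3 through the null allele m793. MZsox19b embryos lack maternal and zygotic Sox19b through a frameshift allele, m1434, and this line goes back to a single founder. The WT is the reference for both, and the labels give AB/TL as the strain background of every sample. The MZspg line is kept by rescue of its offspring with injected Pou5f3 mRNA. Mutants were collected at the same age as the WT, and the study describes MZsox19b embryos as slower to reach later landmarks, so that age was matched and stage may not have been. For all mutants, MZspg included, the study also reports delayed zygotic transcription and delayed loss of maternal mRNA. It describes epiboly defects in MZspg as well. Each H3K4me3 library came from a single ChIP experiment on pooled embryos, 1 library per genotype. H3K27ac had 1 library in MZspg and 1 in the WT, each pooling more than 1 ChIP experiment, and 2 replicates in MZsox19b. With 1 H3K4me3 library a side no test was possible, the spread between libraries is unknown, and differences between genotypes and between libraries cannot be told apart. In pools of whole embryos, a mark in fewer cells and less of it per cell cannot be told apart either. The lists carry no read counts, so that no depth could be measured for a peak, and nothing in them allowed the genotype labels to be checked. The read totals that the study lists are lower for the MZspg H3K4me3 library than for those of MZsox19b and the WT, and the part of depth in the comparisons was not tested.

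The lists differed in length and in height before any peak was compared, the shorter and lower one being that of the library with fewer reads. The MZspg list covered 15.1 Mb and the MZsox19b list 32.3 Mb, at nearly the same median width of 523 and 507 bp. Fold enrichment, the ratio of ChIP signal at a peak summit to the local background, had a median of 4.99 in MZspg and 5.99 in MZsox19b. The highest peaks lay much farther apart, at 98.8-fold in MZspg and 310-fold in MZsox19b. In the WT, 53634 peaks covered 27.5 Mb, with a median of 3.10-fold, below that of MZspg, and a maximum of 291-fold. Of MZspg peaks 58.0% reached 4-fold, of MZsox19b peaks 61.6% and of WT peaks 35.8%. Because height is not comparable between the lists, peaks were compared by rank, and the 10000 highest of each list are called strong. The MZspg peak at rank 10000 stood at 6.16-fold and the next at 6.15-fold. In MZsox19b the peak at rank 10000 and the next one both stood at 24.97-fold. A strong peak of MZsox19b was thus a much higher one than a strong peak of MZspg.

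Most H3K4me3 peaks of MZspg were also peaks in MZsox19b, but fewer than 4 in 10 peaks of the longer MZsox19b list had a counterpart in MZspg. With an overlap of 1 bp or more, 16574 of 22502 MZspg peaks were shared, 73.7% (73.1 to 74.2%), and 16186 of 42572 MZsox19b peaks, 38.0% (37.6 to 38.5%). Intervals are Wilson 95% intervals here and throughout; they hold for counting error alone, and peaks close to each other are not independent. With both lists cut to the 22502 highest peaks, 65.9% (65.3 to 66.5%) of MZspg and 63.6% (63.0 to 64.2%) of MZsox19b peaks were shared. The MZsox19b list then ended at 5.34-fold. The Jaccard index, that is the bases under peaks of both mutants out of the bases under a peak of at least 1, was 35.8% for the full lists and 41.2% at equal list sizes. MZspg peaks held 82.4% of their bases in regions shared by both full lists, MZsox19b peaks 38.7%.

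Unshared peaks were the low and narrow ones in both lists. The 5928 MZspg peaks with no MZsox19b peak, 26.3% of the list, had a median height of 2.83-fold and a median width of 271 bp, against 8.41-fold and 689 bp for shared ones. The 26386 MZsox19b peaks with no MZspg peak, 62% of the list, had medians of 3.59-fold and 332 bp, against 33.1-fold and 1140 bp. Shared regions were mostly 1 peak in each mutant. Only 196 MZspg peaks, 1.18% of the shared ones, lay over 2 or more MZsox19b peaks. In the other direction 516 MZsox19b peaks, 3.19% of the shared ones, lay over 2 or more MZspg peaks, with at most 9 under 1 peak.

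Among strong peaks, complete absence from the other mutant was rare. Of 10000 strong MZspg peaks 213, 2.13% (1.86 to 2.43%), had no MZsox19b peak of any height. In the other direction 561 of 10000 strong MZsox19b peaks, 5.61% (5.18 to 6.08%), had no MZspg peak. The lists searched were of unequal length, and a longer list leaves fewer peaks without a partner. With the MZsox19b list cut to the size of the MZspg list, 353 strong MZspg peaks were missing, 3.53% (3.19 to 3.91%), while the count for MZsox19b did not depend on this step. MZsox19b peaks were missing more often in every setting tried but equal covered length. Most of these settings kept the MZsox19b list the longer one. A common minimum height at the larger of the list minima left the counts at 213 and 561. At equal list sizes the MZspg list still covered less, 15.1 Mb against 25.98 Mb for the MZsox19b list. Cutting both lists to the same covered length left 8841 MZsox19b peaks. Then 20.6% of strong MZspg peaks and 4.13% of these MZsox19b peaks were missing. With fewer MZsox19b peaks left than the 10000 strong MZspg peaks, that setting cannot decide the order. The part of covered length in the order seen in the other settings was not tested.

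Missing peaks were concentrated at the low end of the strong ranks. Among the 1000 highest MZspg peaks 3 were missing from MZsox19b, 0.3% (0.102 to 0.878%), and among ranks 9001 to 10000 there were 74, 7.4% (5.94 to 9.19%). For MZsox19b the same classes held 10, 1% (0.544 to 1.83%), and 179, 17.9% (15.6 to 20.4%). Within the 3000 highest ranks the intervals of both mutants overlapped in each class of 1000. From rank 5001 on, they no longer overlapped in any class when full lists were searched. At equal list sizes the intervals overlapped in 2 of these 5 classes.

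**Figure D1:**
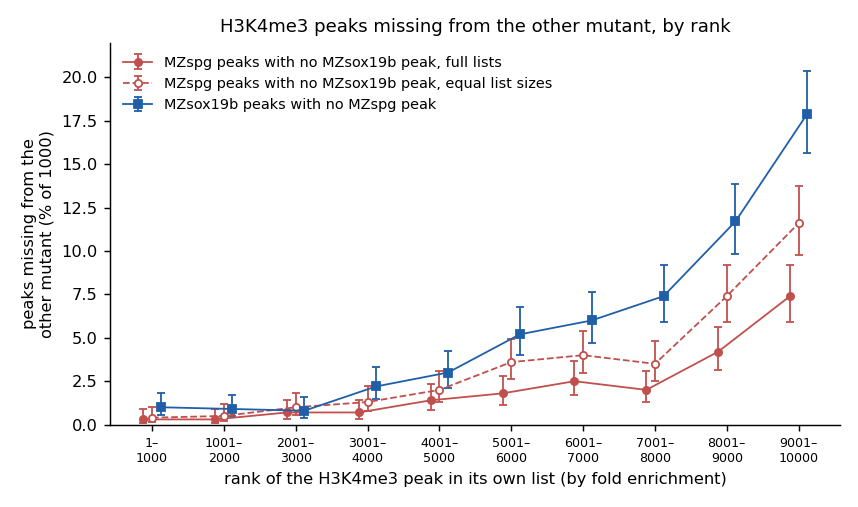
Percentage of H3K4me3 peaks with no overlapping peak in the other mutant (y axis) in classes of 1000 ranks by fold enrichment (x axis), with Wilson 95% intervals that cover counting error only. Red points are MZspg peaks (filled, full lists; open, equal list sizes) and blue squares MZsox19b peaks; the shares rise from 0.3% and 1% in the highest class to 7.4% and 17.9% in the lowest.

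Strong peaks that were missing were lower and narrower than the strong peaks that were present. The 213 peaks found in MZspg alone had a median height of 8.94-fold and a median width of 637 bp, whereas the 9787 others had medians of 18.02-fold and 955 bp. In MZsox19b the 561 missing peaks had medians of 34.6-fold and 1004 bp, against 66.7-fold and 1492 bp for the 9439 others. Few missing peaks lay next to a peak of the other mutant. A peak of the other mutant lay within 1000 bp of 22 of the 213 MZspg peaks (10.3%) and of 38 of the 561 MZsox19b peaks (6.77%). The median distance to the nearest peak of the other mutant was 8976 bp from the former and 16905 bp from the latter. The lists searched differed in length, 42572 MZsox19b peaks for the former and 22502 MZspg peaks for the latter. Distances and shares within 1000 bp depend on that length. They therefore do not show which set was the more isolated.

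The WT state separated the sets. Of the 561 strong peaks found in MZsox19b and not in MZspg, 548 had H3K4me3 in the WT, 97.7% (96.1 to 98.6%). Of the 213 strong peaks found in MZspg and not in MZsox19b, 92 did, 43.2% (36.7 to 49.9%). The intervals lay far apart. Strong peaks that were present in the other mutant overlapped a WT peak in 99.5% of cases for MZspg and in 99.96% for MZsox19b. When these were weighted to the rank classes of the missing peaks, the shares were 99.1 and 99.9%. The WT list was the longest of the H3K4me3 lists. With it cut to the MZspg list size, 66 of the 213 MZspg peaks (31.0%, 25.2 to 37.5%) and 522 of the 561 MZsox19b peaks (93.0%, 90.6 to 94.9%) had a WT peak. With missing peaks taken at equal list sizes, 203 of 353 MZspg peaks had one in the full WT list, 57.5% (52.3 to 62.6%). With the WT list cut as well, 145 of the 353 had one, 41.1% (36.1 to 46.3%).

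Where WT H3K4me3 was present at a missing peak, it was lower than elsewhere. At the 92 MZspg peaks the WT peak had a median rank of 13334.5 and a median height of 6.87-fold. At the 548 MZsox19b peaks these were 9705.5 and 12.5-fold. At strong peaks present in both mutants the WT medians were 33.1-fold for the MZspg set and 34.5-fold for the MZsox19b set. These heights were not weighted by rank, and the missing peaks ranked lower in their own lists. Median ranks were 8190.5 for the 92 MZspg peaks and 4926 for the strong MZspg peaks present in MZsox19b. In MZsox19b they were 8141.5 for the 548 and 4793. The remaining 121 strong MZspg peaks had H3K4me3 neither in MZsox19b nor in the WT, and 107 of them had no WT peak within 1000 bp. Only 13 strong MZsox19b peaks were without a counterpart in MZspg and in the WT.

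Both sets of missing peaks carried H3K27ac in their own genotype, at rates whose intervals overlapped those of the other strong peaks before any weighting by rank. In MZspg, 207 of the 213 peaks overlapped an MZspg H3K27ac peak, 97.2% (94.0 to 98.7%), against 98.1% of the others. In MZsox19b, 549 of the 561 overlapped an H3K27ac peak of both MZsox19b replicates, 97.9% (96.3 to 98.8%), against 97.6% of the others. Weighted to the rank classes of the missing peaks, the others had 95.8% in MZspg and 94.6% in MZsox19b. The latter lay below the interval of the missing MZsox19b peaks. H3K27ac came from ChIP libraries that had no part in the choice of these peaks, though the study pooled inputs as the background for calling peaks. The acetylation was somewhat lower than at the others, with a median of 6.36-fold against 8.14-fold in MZspg, and of 8.05-fold against 10.3-fold in replicate 1 of MZsox19b. Its heights were not weighted by rank.

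In the other mutant, most of these peaks lacked H3K27ac as well as H3K4me3. Only 18 of the 213 MZspg peaks overlapped H3K27ac in both MZsox19b replicates, 8.45% (5.41 to 12.96%), against 94.0% of the strong MZspg peaks present in MZsox19b. Weighted to the rank classes of the missing peaks, the latter share was 88.7%. Replicate 1 alone had a peak at 22 and replicate 2 at 31 of the 213, and either replicate at 35. With missing peaks taken at equal list sizes, 61 of 353 overlapped H3K27ac in both replicates, 17.3% (13.7 to 21.6%), and 28.3% in either. For the 561 MZsox19b peaks, 208 overlapped MZspg H3K27ac, 37.1% (33.2 to 41.1%), against 97.1% of the others. With the same weighting by rank the others had 94.0%. This share rests on 1 library, whereas that of the 213 needed a peak in both replicates. The MZspg acetylation peaks at the 208 were weak, with a median of 3.14-fold and a median rank of 38472. At the other strong MZsox19b peaks they had medians of 8.04-fold and 6969.5. Again the medians were not weighted by rank of the H3K4me3 peak. The MZsox19b H3K27ac lists held 141202 and 173020 peaks, the MZspg list 122893.

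The WT carried H3K27ac at 450 of the 561 MZsox19b peaks, 80.2% (76.7 to 83.3%), and at 76 of the 213 MZspg peaks, 35.7% (29.6 to 42.3%). Of the other strong peaks, 92.7% in MZsox19b and 90.8% in MZspg had WT H3K27ac. Weighted to the rank classes of the missing peaks, these shares were 84.8 and 82.7%. Combining the marks, the most common state of the MZsox19b peaks was H3K4me3 in the WT, H3K27ac in their own genotype and none in MZspg, with 331 peaks, 59.0%. A further 205, 36.5%, had the same state but with H3K27ac in MZspg. For MZspg peaks the most common state was H3K27ac in MZspg, not in both MZsox19b replicates, and no WT H3K4me3, with 110 peaks, 51.6%. WT H3K27ac was not part of these states, which were not counted for the other strong peaks. Next came 79 peaks, 37.1%, with WT H3K4me3 and MZspg H3K27ac but none in both MZsox19b replicates. At 98 of the 213 MZspg peaks none of the other 5 lists, that is of the WT and MZsox19b, held an overlapping peak of either mark. This was so for 9 of the 561 MZsox19b peaks in the WT and MZspg lists.

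**Figure D2:**
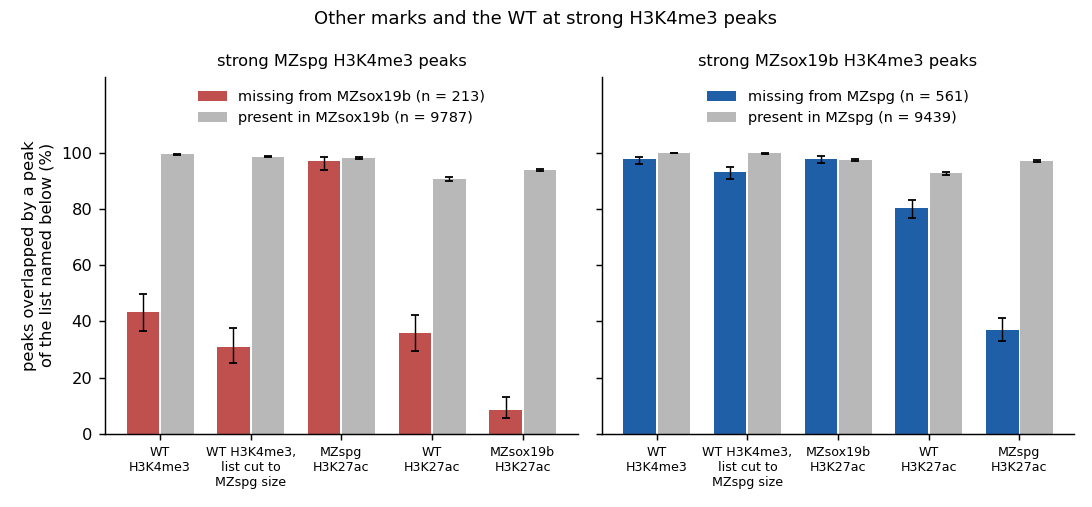
Percentage of strong H3K4me3 peaks (y axis) that overlap a peak of the list named under each pair of bars, for strong MZspg peaks (left) and strong MZsox19b peaks (right), with Wilson 95% intervals that cover counting error only. Coloured bars are peaks missing from the other mutant and grey bars peaks present there; MZsox19b H3K27ac counts only where both replicates had it. Missing MZsox19b peaks had WT H3K4me3 in 97.7% of cases and missing MZspg peaks in 43.2%.

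The highest-ranking missing peaks are given by position in danRer11, as no gene annotation of that build was used here. At chr20:27748757-27751064 H3K4me3 stood at 67.5-fold in MZspg (rank 139) and 46.6-fold in the WT, and the nearest MZsox19b peak was 14936 bp away. H3K27ac was 27.9-fold in MZspg and 10.9-fold in the WT, and absent from both MZsox19b replicates for more than 5 kb on either side. The peak of MZspg rank 1784, chr8:2505390-2506325, had the same state. It stood at 37.2-fold in MZspg and 64.1-fold in the WT for H3K4me3 and at 27.3-fold and 19.8-fold for H3K27ac, with no peak of either mark in MZsox19b. Both regions were thus marked in MZspg and the WT and in no MZsox19b list.

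The other 3 of the 5 highest-ranking MZspg peaks were marked in MZspg alone. The region chr6:1389017-1391518 (rank 216) carried H3K4me3 at 63.6-fold and H3K27ac at 19.2-fold in MZspg, and the nearest H3K4me3 peak was 52590 bp away in the WT and 79592 bp away in MZsox19b. At chr16:4545976-4547059 (rank 527) the MZspg values were 54.7-fold and 9.24-fold, with H3K27ac of the WT and of both MZsox19b replicates starting only 1304 to 1393 bp away. At chr24:6105048-6106097 (rank 1542) they were 39.7-fold and 14.7-fold, and the nearest H3K4me3 peak lay 2144 bp away in the WT and 2237 bp away in MZsox19b. The last 2 regions thus lay close to peaks of the other genotypes without overlapping them.

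The 5 highest-ranking MZsox19b peaks with no MZspg peak were all marked in the WT and acetylated in both MZsox19b replicates. The highest, chr22:4792248-4796559 (rank 289), was 4312 bp wide and stood at 200.1-fold for H3K4me3 in MZsox19b and 47.3-fold in the WT. Its H3K27ac was 37.4-fold and 25.3-fold in the MZsox19b replicates, 8.95-fold in the WT and 3.17-fold in MZspg. It was the only one of the 5 with any MZspg peak of either mark. The peak at chr4:51840834-51843274 (rank 325) stood at 195.9-fold in MZsox19b and 22.4-fold in the WT. Here H3K27ac reached 64.5-fold and 47.1-fold in the MZsox19b replicates, ranks 8 and 41 of those lists, against 9.05-fold in the WT and none in MZspg. This region ranked far higher for both marks in MZsox19b than in the WT, where H3K4me3 had rank 6877.

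The remaining 3 of these ranked high in the WT as well. The peak at chr16:38627664-38629330 (rank 356) stood at 192.2-fold in MZsox19b and 83.5-fold, rank 878, in the WT. That at chr14:52407490-52409590 (rank 400) was 188.9-fold in MZsox19b and 119.9-fold, rank 104, in the WT. At chr20:26417151-26423394 (rank 470), a peak of 6244 bp, the values were 182.6-fold in MZsox19b and 77.9-fold, rank 1129, in the WT, which had 4 separate peaks there. The WT H3K27ac heights at these regions were 18.9-fold, 15.9-fold and 25.4-fold. No MZspg peak of H3K27ac overlapped any of them, and the nearest MZspg H3K4me3 peaks were 14310 to 22294 bp away. Each was thus strongly marked in the WT and MZsox19b and unmarked in MZspg.

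**Figure D3:**
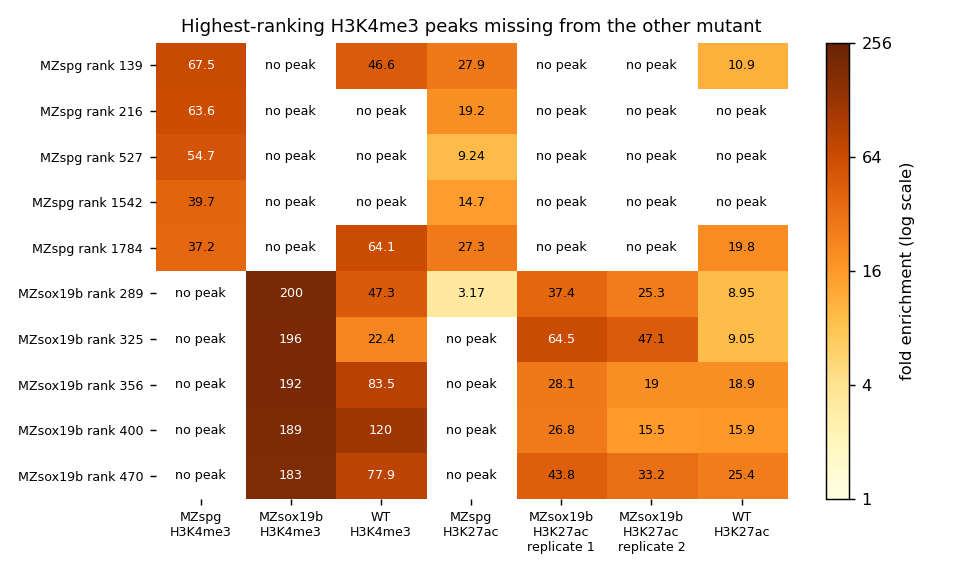
Fold enrichment (colour, log scale, and printed in each cell) of the 5 highest-ranking strong H3K4me3 peaks of each mutant that had no peak in the other (rows, named by rank in their own list) in the 7 lists (columns, 1 library each). White cells had no overlapping peak; all 5 MZsox19b rows have a WT H3K4me3 peak, as do 2 of the 5 MZspg rows.

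Chromosome 4 stood out among the chromosomes for peaks of MZsox19b. It held 128 of the 561 strong MZsox19b peaks missing from MZspg, 22.8%, but 8.41% of all strong MZsox19b peaks. The share missing was 15.2% (12.95 to 17.8%) on chromosome 4 and 4.73% (4.31 to 5.18%) on the other chromosomes together. Single chromosomes other than 4 ranged from 2.02% on chromosome 13 to 7.00% on chromosome 14. The excess lay beyond 30 Mb, where 117 of 572 strong peaks were missing, 20.5% (17.4 to 24.0%). Up to 30 Mb it was 11 of 269, 4.09% (2.30 to 7.17%), and did not differ from the other chromosomes beyond counting error. This region belongs to the long arm of zebrafish chromosome 4, which is known to be rich in repeats and clustered gene families. Peak names of the MZsox19b H3K4me3 list alone carry a note of a filtered alignment. The part of read filtering in these shares was not tested. MZspg peaks missing from MZsox19b were also more frequent beyond 30 Mb, with 24 of 464, 5.17% (3.50 to 7.58%), against 1.99% (1.72 to 2.29%) off chromosome 4.

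Missing MZsox19b peaks on this arm were more often marked in the WT than those elsewhere. The shares were not counted for strong peaks of the arm that were present in MZspg, and were not weighted by rank. Whether the difference is particular to missing peaks is therefore not known. WT H3K27ac overlapped 106 of the 117 beyond 30 Mb, 90.6% (83.9 to 94.7%), and 344 of the 444 elsewhere, 77.5% (73.4 to 81.1%). With the WT H3K4me3 list cut to the MZspg size, all 117 had a WT peak (96.8 to 100%), against 91.2% (88.2 to 93.5%) elsewhere, and neither pair of intervals overlapped. With the full WT list the shares were 100% and 97.1%, with overlapping intervals. MZspg H3K27ac overlapped 36.8% of the former and 37.2% of the latter. For the 24 missing MZspg peaks on the arm, 9 had WT H3K4me3, 37.5% (21.2 to 57.3%), against 43.9% (37.0 to 51.0%) of the 189 elsewhere. Those intervals overlapped.

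**Figure D4:**
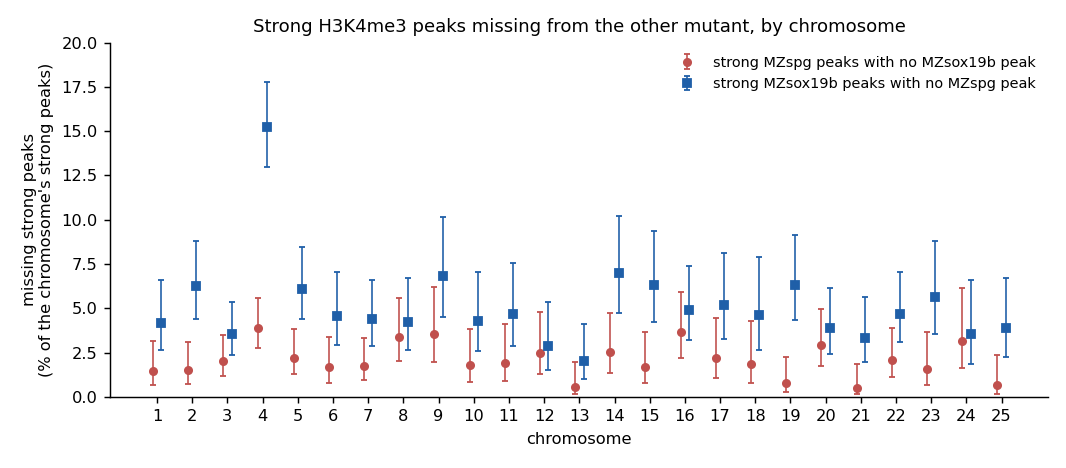
Percentage of the strong H3K4me3 peaks of each chromosome (x axis) that had no peak in the other mutant (y axis), with Wilson 95% intervals that cover counting error only. Red points are MZspg peaks and blue squares MZsox19b peaks, 1 library each; chromosome 4 reached 15.2% for MZsox19b peaks.

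Some missing peaks lay near each other. Another missing peak of the same mutant was within 100 kb of 156 of the 561 MZsox19b peaks, 27.8%, and of 33 of the 213 MZspg peaks, 15.5%. These shares depend on the number of peaks in each set, and 117 of the 561 lay on the long arm of chromosome 4. They were not counted for the other strong peaks. Whether missing peaks lay closer together than strong peaks in general is therefore not known. The largest group, at chr2:14686523-14758663, held 7 strong MZsox19b peaks, all missing from MZspg, all with a WT peak, and with a highest value of 55.3-fold. Next was chr4:70462819-70603013 with 5 of 5. Among MZspg peaks no group exceeded 3, and 2 groups of 3, at chr17:39409794-39424162 and chr8:22395135-22492434, had no WT peak at any of the 3.

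Peaks present in both mutants kept much of their order. At equal list sizes 14249 pairs of peaks were each other's highest-ranking partner, 63.3% of the 22502 peaks of a list. The absolute rank shift between the mutants had a median of 1525 ranks (quartiles 606 and 3306), and 5285 pairs, 37.1%, lay within 1000 ranks of each other. Spearman's rho over the pairs was 0.84, a description of 2 libraries whose peaks share the copy number and mappability of the genome. Shifts grew down the list. For MZspg ranks 1 to 2500 the median absolute shift was 509 ranks over 2478 pairs, and for ranks 10001 to 12500 it was 2366 over 1935 pairs. From rank 10001 to the end of the list MZspg heights fell only from 6.15-fold to 1.18-fold, with ties ordered by position. Small differences in height thus span many ranks there, and their part in the shifts was not tested.

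Large moves among pairs were few. From the 5625 highest peaks of MZspg to the 5625 lowest of MZsox19b at equal list sizes moved 30 pairs, and 6 moved the other way. Pairs were formed within the cut lists only, so MZspg peaks whose MZsox19b partner ranked below the cut were not counted as moves. Of the 10000 strong MZspg peaks, 213 had no partner in the full MZsox19b list and 353 had none in the cut list. The MZspg list lost no peaks to the cut, so this limit holds for moves down in MZsox19b alone. Of the 30, 25 MZspg peaks had WT H3K4me3, at a median WT rank of 14439, and all 30 had MZspg H3K27ac at a median of 9.24-fold. All 6 of the other kind had WT H3K4me3, at a median rank of 8717, and had H3K27ac in both MZsox19b replicates. Ranks of 5000 or more apart were more common, with 1150 pairs higher in MZspg and 804 higher in MZsox19b. Replicate 1 of MZsox19b had H3K27ac at 71.5% of the MZspg peaks of the former and at 93.0% of those of the latter, against 92.3% over all pairs. WT H3K27ac overlapped 62.3% and 75.6%, against 82.0%. Of the 1150 MZspg peaks 92.5% had H3K27ac in MZspg, and of the 804 82.2%, against 92.8%. The MZspg H3K27ac peaks at the 1150 had a median of 5.16-fold, below the 6.36-fold over all pairs. The MZspg peaks of the 804 were also narrower, with a median of 323 bp against 633 bp for the 1150. Median ranks in MZspg were 9159 for the 1150, 16338.5 for the 804 and 7323 over all pairs. In MZsox19b they were 17167, 9218 and 7343. The parts of width and rank in these overlaps were not tested.

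Among pairs with the higher rank within 2000, the 5 largest shifts were read for each direction. Higher in MZspg, 3 of the 5 lay on the long arm of chromosome 4. Chromosome 4 as a whole was frequent among shifts of 5000 ranks or more in both directions. It held 134 of the 1150 pairs higher in MZspg, 11.7%, and 145 of the 804 higher in MZsox19b, 18.03%. Its share of all pairs was 7.94%. At chr4:48802198-48803421 H3K4me3 stood at 57.0-fold, rank 427, in MZspg and at 7.28-fold, rank 19204, in MZsox19b, where the peak was only 255 bp wide. In the WT it was 4.85-fold. The MZspg H3K27ac peak there reached 24.2-fold, against 5.43-fold in replicate 1 of MZsox19b. That replicate 1 peak lay beside the H3K4me3 peak and overlapped only its edge, ending at position 48802203. In replicate 2 and in the WT the nearest H3K27ac peaks did not overlap but lay 10 and 65 bp away. At chr20:42707463-42708573 the ranks were 1787 and 18028, and MZspg H3K27ac reached 17.9-fold. The nearest H3K27ac peaks of the WT and of the MZsox19b replicates lay 154 to 194 bp outside the H3K4me3 peak. At chr4:61242857-61243710 they were 1871 and 17877, at chr4:59555603-59556741 1733 and 15590, and at chr16:9452547-9453731 1301 and 14199. WT H3K4me3 was at most 15.5-fold at the 5, and its best rank there was 8600.

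The 5 largest shifts in favour of MZsox19b were strong in the WT. At chr14:52479340-52482433 H3K4me3 was 174.1-fold in MZsox19b (rank 583), 94.4-fold in the WT (rank 505) and 3.32-fold in MZspg (rank 15224), with no MZspg H3K27ac. At chr1:41237141-41240265 the values were 139.5-fold, 57.4-fold and 3.32-fold in the same order, and the MZspg peak measured 294 bp against 3125 bp in MZsox19b. The others, chr14:27999132-28002546, chr19:22020226-22022068 and chr24:12835554-12838618, stood at 148 to 182-fold in MZsox19b, 39.3 to 94.9-fold in the WT and 3.61 to 4.33-fold in MZspg. MZspg H3K27ac did not exceed 4.97-fold at any of the 5, whereas it was 12.6-fold or more in replicate 1 of MZsox19b. In each, the MZspg peak was the narrower one.

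**Figure D5:**
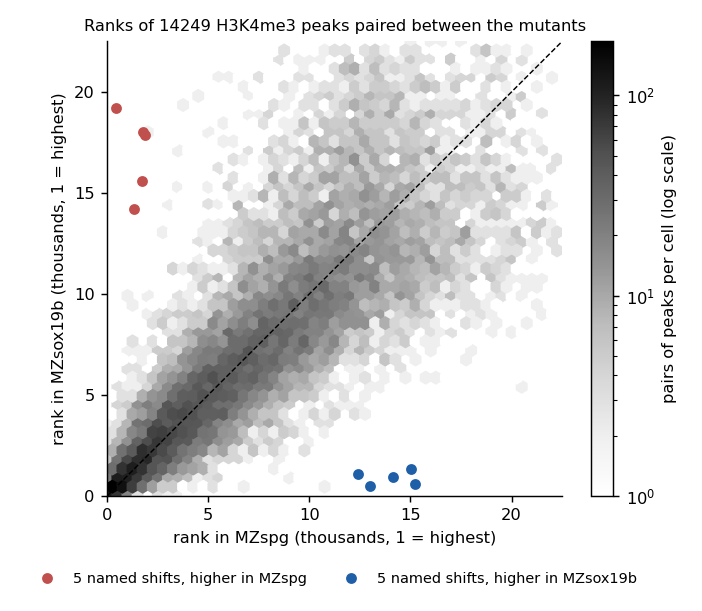
Rank by fold enrichment in MZspg (x axis) and in MZsox19b (y axis), each divided by 1000, of the 14249 paired H3K4me3 peaks at equal list sizes, 1 library per axis. Grey cells count pairs on a log scale, the dashed line marks equal ranks, and points are the 5 largest shifts in each direction with a higher rank within 2000; most pairs lie along the line and spread widens down the lists.

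The highest peaks were shared, though not always at a like rank. All of the 3 highest peaks of each mutant were shared. The highest MZspg peak, chr19:3877195-3878869, stood at 98.8-fold there, at 227.5-fold in MZsox19b (rank 92) and at 152.0-fold in the WT (rank 7). The next, chr17:112291-114558 and chr20:42291576-42292732, had MZsox19b ranks of 88 and 203. The highest MZsox19b peak, chr4:43391897-43393574, was 309.8-fold there and 149.8-fold in the WT (rank 8) but 23.6-fold in MZspg, rank 3744. This region on the long arm of chromosome 4 also carried the third highest H3K27ac peak of MZsox19b replicate 1, at 83.2-fold, and 14.7-fold in MZspg. The other highest MZsox19b peaks, chr2:57230430-57234137 and chr11:38551841-38554616, had MZspg ranks of 126 and 23.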

How the data were processed

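H3K4me3 and H3K27ac peak lists of whole embryos at 4.3 hpf were used, 3 and 4 lists, grouped by the sample titles; the 7 input libraries have no list here. The authors mapped paired-end reads to danRer11 with Bowtie2 (2.3.2.2 in the submitters' processing notes, which also name MACS2 and bedtools). Per the reporting form of the study, peaks were called with MACS2 against pooled inputs, with a q-value limit; the smallest deposited −log10 q in the H3K4me3 lists was 1.30. In the deposited lists the score column holds 10 times the −log10 q, cut to a whole number, the fold enrichment column is a ratio of ChIP signal at the summit to local background, and further deposited columns are the −log10 p and −log10 q and the summit offset. Peak names in the MZsox19b H3K4me3 list, unlike the others, carry a note of a filtered alignment, so its reads may have been prepared differently. The study lists read totals per library, lower for MZspg H3K4me3 than for the other H3K4me3 libraries; they were not used to correct the lists, and peak number and height both depend on depth.

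Peaks on chromosomes 1 to 25 were ranked by fold enrichment, ties by position. Sharing meant 1 bp of overlap or more, and pairs were mutual highest-ranking partners. A rule set the peaks named: the 5 highest-ranking missing peaks of each mutant, the 5 largest rank shifts in each direction with a higher rank within 2000, and the 3 highest peaks of each list; groups within 100 kb were named after their values were seen. Members and alternatives were chosen with earlier results of these data known. Overlap functions were tested on simulated intervals. Python 3.11.15, numpy 2.4.6, pandas 2.3.3, scipy 1.17.1 and matplotlib 3.10.9 were used. Genes at start sites and sequences were left out, since the reference at hand is of another build.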

Additional observations from a re-analysis of the deposited data

Results flagged for a closer look

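Peaks on sequences outside chromosomes 1 to 25 entered no comparison of the report, and both lists held many: 4429 in MZspg, 16.4% of its list, and 9058 in MZsox19b, 17.5%. They lay on 1150 and 1346 sequences, with median heights of 5.19-fold and 6.26-fold. Of these peaks 75.01% in MZspg and 36.5% in MZsox19b were shared with the other mutant, near the values on the chromosomes. When all sequences were ranked together, 1605 of the 10000 highest MZspg peaks and 1489 of the 10000 highest MZsox19b peaks lay there. Of these, 32 (1.99%, Wilson 95% interval 1.42 to 2.80%) and 115 (7.72%, 6.47 to 9.19%) were missing from the other mutant. Over all 10000 peaks of this ranking, 146 (1.46%) in MZspg and 436 (4.36%) in MZsox19b were missing. The interval for MZsox19b peaks on these sequences thus lay above the share over all 10000.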

How the results depend on the processing

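Of 81 alternative values, 38 stayed within the interval of the main value or, for the shares of strong peaks missing, within 1.5 times of it, and 43 moved. For the Jaccard index that interval, not given above, treated single bases as independent. For the median rank shift it treated pairs as independent. Both intervals are too narrow, so that small changes in these values counted as moved. For the share of MZspg peaks shared, that of MZsox19b peaks shared and the Jaccard index in turn, the values were 65.9, 63.6 and 41.2% at equal list sizes; 39.5, 95.9 and 42.7% at equal covered length; 93.5, 45.9 and 39.0% above 4-fold; 76.5, 42.5 and 34.4% with peaks within 1000 bp merged; and 76.2, 38.7 and 36.8% without chromosome 4. With 50% of the peak covered the shares were 71.0 and 27.8%. Summit windows of 500 bp gave 70.7% of MZspg peaks and an index of 26.7%, and all sequences an index of 35.3%. Ranking by −log10 q at equal sizes gave 66.8, 64.5 and 41.6%. Strong MZspg peaks missing came to 3.85% with 50% covered, 3.53% at equal sizes, 20.6% at equal covered length, 4.78% with summit windows, 3.76% by −log10 q, 0.68% of the 5000 and 21.5% of the 20000 highest. Strong MZsox19b peaks missing came to 26.3% with 50% covered, 8.94% above 4-fold, 1.58% of the 5000 and 30.3% of the 20000 highest. MZsox19b peaks were missing more often than MZspg peaks in every setting but equal covered length, though most settings kept the MZsox19b list the longer one. The cause of the exception was not tested, beyond that the cut removed most MZsox19b peaks. WT H3K4me3 at missing MZspg peaks was 57.5% at equal sizes and 31.0% with the WT list cut to the MZspg size, which gave 93.0% at missing MZsox19b peaks. MZsox19b H3K27ac at missing MZspg peaks was 17.3% at equal sizes and 10.3 to 14.6% with either replicate alone; at missing MZsox19b peaks it was 98.0 to 99.1%. The median rank shift was 1629 by −log10 q, 1429 with merged peaks and 1335 without chromosome 4. The cut WT list, and chromosome 4 and the 1000 bp rule for the state and the shift, were chosen after seeing the data. Genes at start sites were not run, for want of a reference of the same build. No paired analysis was possible because no comparison was tested and each genotype had 1 H3K4me3 library.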
